A study of Mus musculus with 62 samples.

Results

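The transcripts described here are those of the mouse mitochondrial genome, taken as every row of the deposited expression table whose symbol starts with mt-, which gave 37 of 47643 rows. They comprise 13 mRNA, 2 rRNA and 22 tRNA. RNA came from brown adipose tissue of female mice, injected at an age of 2 months, in 62 libraries of 12 groups. The arms were CAC, injected with melanoma cells called cachectic, NCAC, injected with melanoma cells called non-cachectic, and Con, mock injected. Each arm was sampled 2, 4, 6 and 8 weeks after injection, with 5 biological replicates per group and 7 in CAC at 8 weeks. The sample labels give the strain C57BL6/J for every group and the series text gives NCI Ath/nude, so the immune background of the hosts is uncertain. No transgene or drug is named for any arm. Cachexia is the wasting of fat and muscle in patients and animals with tumours.

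The mitochondrial genome is a small circle present in many copies per cell. Both of its strands are transcribed by a dedicated polymerase as long precursors. These are cut mostly at the tRNA that lie between the other genes, and most of the released mRNA receive short poly(A) tails. All of its proteins are core subunits of the respiratory chain or of ATP synthase, and the remaining subunits of these complexes come from nuclear genes. Brown adipocytes are packed with mitochondria, in which UCP1 turns the energy of respiration into heat.

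The layout of this genome sets which rows can be separated from each other. On chrM of mm10, mt-Atp8 (chrM:7766-7969, plus strand, 204 bases) and mt-Atp6 (chrM:7927-8607, plus strand) share 43 bases and are known to lie on 1 mRNA, which makes mt-Atp8 short and partly indistinguishable from its neighbour. Its sequence is printed whole because it was the most variable of the abundant members, with the shared bases in capitals (GENCODE transcripts, mm10, 5′ to 3′).
mt-Atp8: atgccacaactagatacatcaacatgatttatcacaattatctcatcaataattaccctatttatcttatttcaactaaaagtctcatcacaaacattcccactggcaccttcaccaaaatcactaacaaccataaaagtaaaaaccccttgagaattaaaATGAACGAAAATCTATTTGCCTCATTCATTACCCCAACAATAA

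The genes mt-Nd4l (chrM:9877-10173) and mt-Nd4 (chrM:10167-11544) share 7 bases on the plus strand and are likewise known to lie on 1 mRNA. Reads inside shared bases could have been given to either member, so mt-Atp8 and mt-Nd4l, the shorter member of each pair, carry more of this uncertainty. The last 15 bases of 6 mRNA are printed because 3 of them end before a full stop codon in the genome, which the poly(A) tail is known to complete, and because mt-Nd5 and mt-Nd6 run into each other from opposite strands. Capitals mark the stop codon or the part of it that the genome holds.
mt-Co3 (chrM:9376-9390, plus strand): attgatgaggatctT
mt-Nd4 (chrM:11530-11544, plus strand): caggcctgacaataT
mt-Cytb (chrM:15274-15288, plus strand): taaaattatatccaT
mt-Co1 (chrM:6858-6872, plus strand): gtaaaagtaaaaTAA
mt-Nd5 (chrM:13551-13565, plus strand): attaatctcgagTAA
mt-Nd6 (chrM:13552-13566, minus strand): attactcgagatTAA

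The gene mt-Nd6 is the only mRNA of the minus strand and shares 14 bases with mt-Nd5. The library kit keeps strand, but whether the counting used it is not given in the sources used here. Reads of mt-Nd5 and mt-Nd6 in that overlap therefore cannot be told apart. If strand was not used, reads of plus-strand precursors across the whole of mt-Nd6 could also have been counted as mt-Nd6. Of nuclear transcripts, 11 match a mitochondrial mRNA at 95% identity or more over at least 100 bases. Among them, Gm28437 was identical to mt-Co3 over 783 of 784 bases, Gm10925 to mt-Atp6 over 678 of 681, and Gm28661 to mt-Co2 over 681 of 684. Listed at 0 in every library were 10 of these 11 rows, and Gm4076 reached at most 0.0872 TPM, so how the counting divided reads between the copies cannot be seen in the values.

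Values are TPM, which scale each row for its length and give every library the same sum. The depth of the libraries is unknown, and between 10851 and 12347 rows reached 1 TPM in a library. A library at 4 weeks in CAC and another in Con carry the same sample number in their titles, and the groups follow the treatment labels. Standing apart from their groups were 4 libraries. In Con at 4 weeks, replicates 3 and 4 had mitochondrial totals of 39.6% and 39.7% and summed levels of 12 brown adipocyte markers of 18895 and 18806 TPM, the highest of all 62. In NCAC at 6 weeks, replicate 4 had a total of 48.4% and a marker sum of 18758 TPM. In CAC at 8 weeks, replicate 3 had a sum of 26825 TPM over 5 erythroid genes, and the lowest brown adipocyte sum, 7465 TPM. Brown adipocyte genes were present throughout: Ucp1 ranged from 1640 to 9679 TPM, and no brown adipocyte marker was listed at 0 in any library. Muscle RNA was present in uneven amounts, with skeletal muscle marker sums from 100 to 23081 TPM. The highest was in replicate 4 of Con at 4 weeks, above its brown adipocyte sum, whereas replicate 3 had 596 TPM.

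All 13 mRNA were above 0 in all 62 libraries and passed the filter of at least 1 TPM in 5 libraries. The 2 rRNA, mt-Rnr1 and mt-Rnr2, and all 22 tRNA were listed at 0 in every library. The same was true of all 61 rows that match an rRNA symbol of RefSeq, and of all 920 snRNA, 1017 snoRNA and 1183 miRNA rows. Libraries were made with an mRNA kit, and whether the zeros come from the library preparation or from the counting was not tested. The mitochondrial total below is therefore a sum over mRNA.

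Cytochrome oxidase mRNA were the most abundant. The subunits of this complex, complex IV, which passes electrons to oxygen, averaged 16.7% (mt-Co1), 16.1% (mt-Co2) and 12.97% (mt-Co3) of the mitochondrial total over 62 libraries. The ATP synthase (complex V) subunit mt-Atp6 averaged 13.5%, and mt-Cytb, the single mitochondrial subunit of complex III, averaged 9.07%. The 7 subunits of complex I, the entry point for electrons from NADH, ranged from 6.56% for mt-Nd1 to 0.168% for mt-Nd6. mt-Co1 was the highest in 38 libraries and mt-Co2 in 24, so their order was not fixed, whereas mt-Nd6 was the lowest in all 62.

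The stability of the members differed more than their rank. mt-Co3 had the steadiest share, with a coefficient of variation of 4.24%, followed by mt-Nd4 with 4.71% and mt-Co2 with 4.94%. mt-Nd6 varied most, with 29.2% and a range of 372 to 1622 TPM, and it was also the scarcest. mt-Atp8 came next with 26.0% although it averaged 43915 TPM, and it ran from 7310 to 74143 TPM, a 10.1-fold range.

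**Figure D1:**
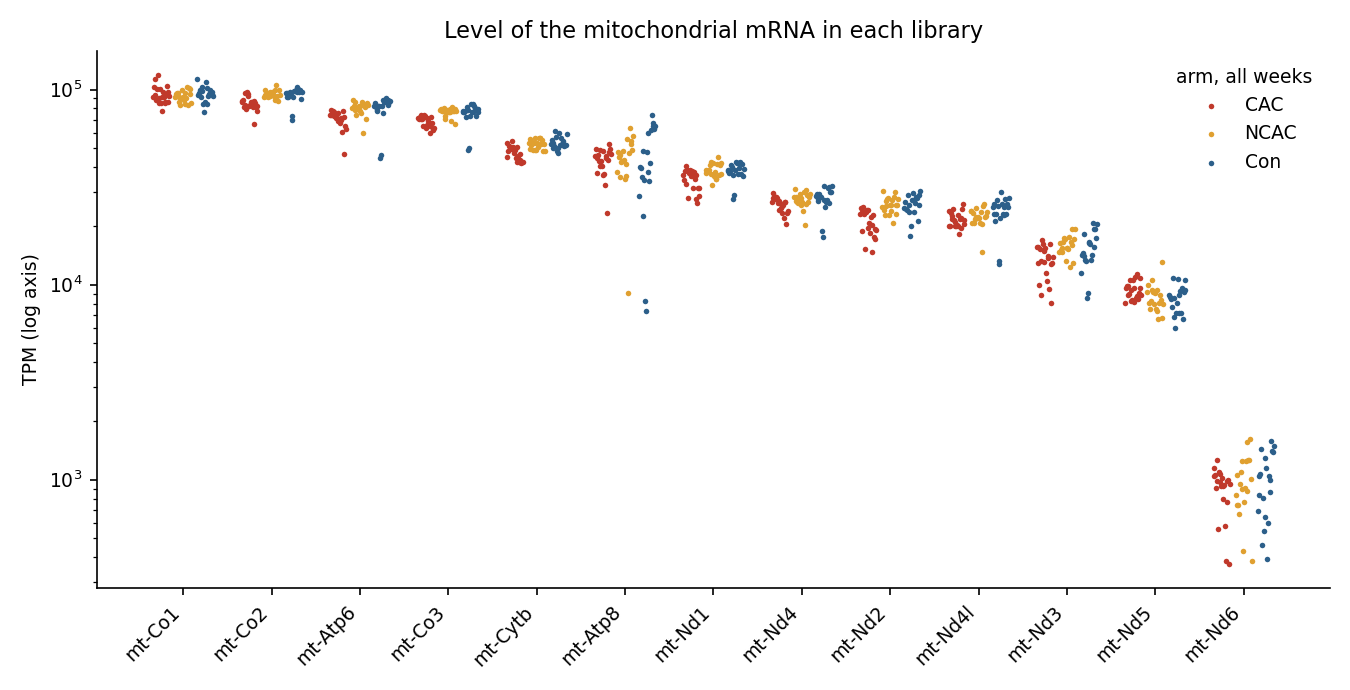
TPM (log axis) of the 13 mitochondrial mRNA in each of 62 libraries, coloured by arm with all weeks together and ordered by mean level. mt-Nd6 lies lowest in every library, and in mt-Atp8 3 libraries fall to between 7310 and 9080 TPM, below all others.

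The mitochondrial share of all TPM was high in every library, from 39.6% to 66.1% with a median of 57.3%, and CAC had the lower values at 6 and 8 weeks. The CAC libraries of week 8 had 44.3% at the lowest, a median of 50.4% and 55.6% at the highest. The Con libraries of that week had 65.5%, 59.9%, 63.5%, 61.0% and 64.2%, and the NCAC libraries 61.99%, 60.7%, 56.0%, 61.0% and 59.1%. No CAC library reached the lowest library of either other arm, although the highest CAC library and the lowest NCAC library lay close together. The mean of the CAC group was 50.8% ± 3.67 (SD, n = 7). Con averaged 62.8% ± 2.33 (n = 5), and NCAC lay between at 59.8% ± 2.33 (n = 5). As a sum over the members, the total is described without a test.

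Earlier the arms lay closer. At 6 weeks the 5 CAC libraries had 50.9%, 53.5%, 51.5%, 52.9% and 52.9%, all below the 5 Con libraries with 66.1%, 57.1%, 59.4%, 59.0% and 64.1%, a difference of -8.80 percentage points. NCAC at 6 weeks, from 48.4% to 61.8%, overlapped both, but its overlap with CAC came from replicate 4 alone, which stood apart. The other 4 NCAC libraries, from 55.1% to 61.8%, all lay above CAC. At 2 weeks the means were 56.2%, 58.5% and 58.2% in CAC, NCAC and Con, and the libraries of CAC overlapped those of both other arms. At 4 weeks CAC was 5.19 percentage points above Con with all libraries and 2.18 below it (difference -2.18) without Con replicates 3 and 4, so its sign rested on those 2 libraries. In the log ratio of mitochondrial to all other TPM, which does not have a fixed ceiling, all 12 differences between arms within a week had the same sign as in percentage points.

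At 8 weeks, 9 of 13 mitochondrial mRNA fell in CAC against Con and none rose (limma on log2(TPM + 1), Benjamini-Hochberg adjusted p under 0.05 over 12581 genes). Over all genes 1.97% were lower and 52.1% higher in this comparison, and the median log2 difference was -0.32 over the members and 0.28 over all genes. Because TPM add up to a fixed sum, a lower mitochondrial share and a higher share of all other rows are the same observation. TPM cannot tell which of the 2 parts changed in amount. After median-of-ratios rescaling, which sets the median gene near no difference (-0.01), 12 of 13 members were lower, against 12.8% of genes lower and 13.5% higher, with a member median of -0.68. Quantile normalization gives each rank the same value in every library. A fall shared by members that keep the top ranks therefore cannot show on this scale. Ranks of the members over all genes were not counted. mt-Co1 and mt-Co2, ranked 1 and 2 among the members in either order in every library, were at 0.11 and -0.11. On this scale 4 members were lower (mt-Nd2, mt-Nd3, mt-Nd5 and mt-Nd6), against 15.4% of genes. mt-Co3, mt-Nd4 and mt-Cytb, called lower on TPM, had differences above 0 (0.03, 0.01 and 0.12). In a bulk sample, fewer cells of a type and less RNA per cell cannot be told apart.

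Of the ATP synthase subunits, mt-Atp6, which forms part of the proton channel, was at 46765 TPM at the lowest, 65000 at the median and 77876 at the highest in CAC at 8 weeks. Con had 88757, 83388, 88085, 86327 and 87043 TPM. Every CAC library lay below every Con library, and mt-Atp6 fell by 0.43 on the log2 scale (SE 0.10, limma adjusted p = 0.00061). Lack of overlap is given here and below as a description only, since its share over all genes was not counted. mt-Atp8, a small subunit beside that channel, was at 23204, 46606 and 52735 TPM (lowest, median, highest) in CAC and at 74143, 67009, 64948, 63115 and 65340 TPM in Con. The groups did not overlap either, but the difference of -0.64 (SE 0.29) had an adjusted p of 0.0565 by limma and was not called. Its SE was the largest of the 13, drawn from all 12 groups. It was called when only CAC and Con at 8 weeks were fitted (adjusted p = 0.0105), without the 4 libraries that stood apart (0.000681), without replicate 4 of CAC (0.0476), after median-of-ratios rescaling (0.025) and after division by the non-mitochondrial total (0.0212). Over all alternatives its adjusted p ran from 0.000681 to 0.834, the highest after quantile normalization.

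Of cytochrome oxidase, mt-Co2, which takes electrons from cytochrome c, had 66953, 81128 and 87537 TPM (lowest, median, highest) in CAC and 100970, 97448, 99884, 89915 and 96851 TPM in Con. The groups did not overlap, and mt-Co2 fell by 0.28 (SE 0.06, limma adjusted p = 0.000314). mt-Co3, a core subunit without a metal centre, fell by 0.26 (SE 0.08, adjusted p = 0.00298), also with no overlap. mt-Co1, the catalytic subunit, behaved otherwise: CAC libraries ran from 85331 to 103791 TPM with a median of 92930, inside and around the Con values of 99432, 95810, 94942, 97501 and 92683 TPM. Its difference was -0.06 (SE 0.08, adjusted p = 0.529). After median-of-ratios rescaling mt-Co1 was called as well, at -0.42 (SE 0.12, adjusted p = 0.00898).

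mt-Cytb, which carries the b-type haems of complex III, had 42109, 42696 and 46987 TPM (lowest, median, highest) in CAC and 52067, 51071, 51996, 51933 and 59248 TPM in Con. The 7 CAC libraries lay close together and all below Con. mt-Cytb fell by 0.29 (SE 0.06, limma adjusted p = 7.87e-05), the smallest adjusted p among the members in this comparison.

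The estimates for subunits of complex I, the complex with the most members, ran from -0.98 to 0.08. mt-Nd2, a membrane subunit in the proton-pumping arm, had 14745, 18960 and 22679 TPM (lowest, median, highest) in CAC and 27753, 21212, 28776, 25448 and 30046 TPM in Con. Replicate 2 of Con lay within the CAC range, and mt-Nd2 fell by 0.52 (SE 0.11, limma adjusted p = 9.04e-05). mt-Nd3, another small membrane subunit, fell by 0.60 (SE 0.15, adjusted p = 0.00114), mt-Nd1 by 0.35 (SE 0.09, adjusted p = 0.000729) and mt-Nd4 by 0.32 (SE 0.09, adjusted p = 0.0024). In each of these 3 mRNA the highest CAC library overlapped the lowest Con library.

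The minus-strand mt-Nd6 had 372, 766 and 994 TPM (lowest, median, highest) in CAC and 864, 1584, 1411, 1381 and 1496 TPM in Con. Replicate 1 of Con lay within the CAC range. mt-Nd6 fell by 0.98 (SE 0.28, limma adjusted p = 0.00343), the lowest estimate of the 13. mt-Nd4l was not called at -0.22 (SE 0.12, adjusted p = 0.102), and passed without the 4 libraries that stood apart (0.0105) and on both rescaled measures, with a range of 0.0059 to 0.446 over all alternatives. mt-Nd5, the long subunit encoded opposite mt-Nd6, had the only difference above 0 on TPM, 0.08 (SE 0.12, adjusted p = 0.579). It was the single member not lower after median-of-ratios rescaling (-0.28, adjusted p = 0.176). After quantile normalization mt-Nd5 was called lower (-0.40, limma adjusted p = 0.0405), so its sign depended on the scale. All 9 calls on TPM held when each of the 12 libraries was left out in turn.

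**Figure D2:**
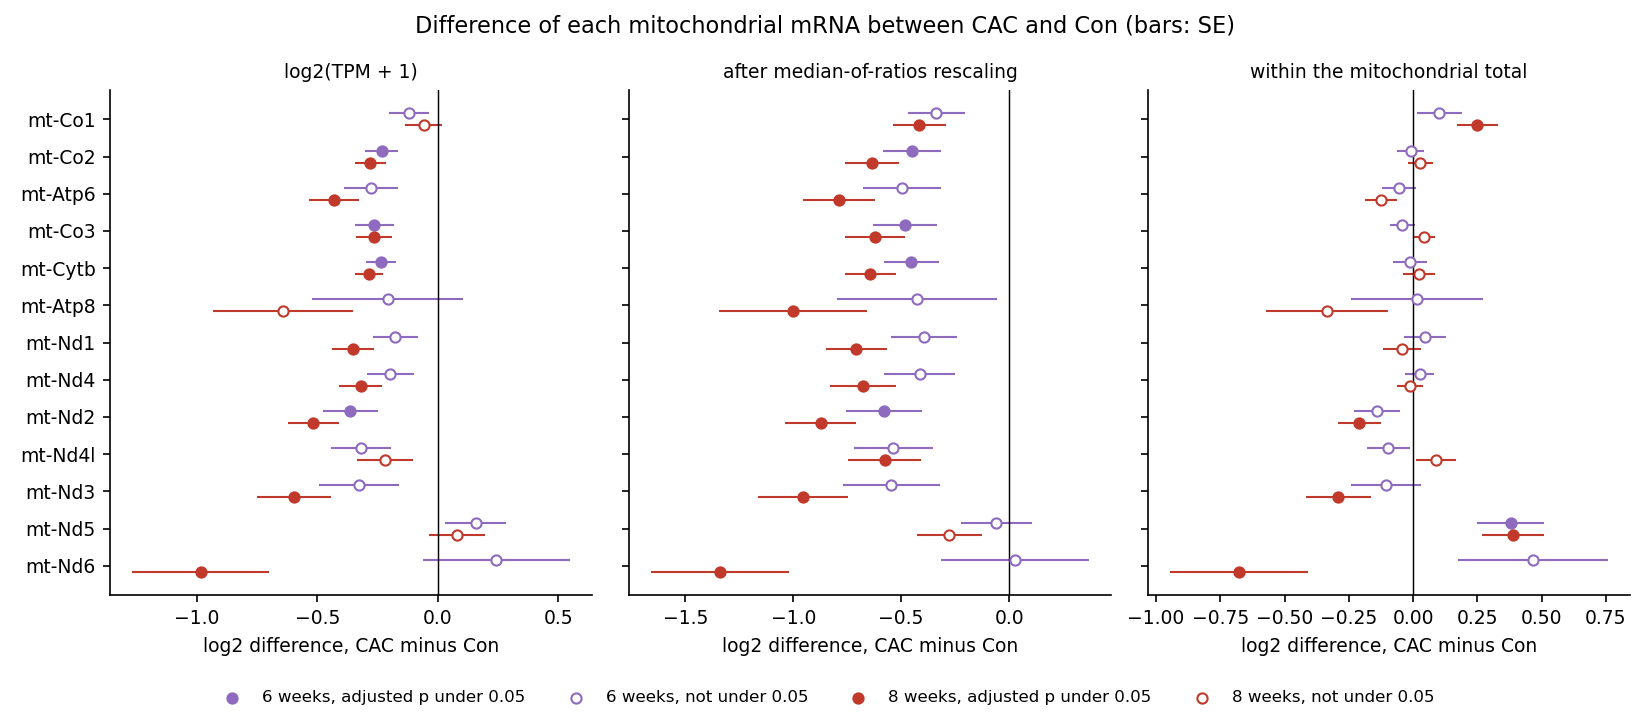
Log2 difference CAC minus Con of each mRNA at 6 and 8 weeks on 3 scales (TPM, median-of-ratios rescaling, within the mitochondrial total), with SE bars and filled points where the limma adjusted p is under 0.05. On TPM 9 points at 8 weeks are filled below 0. Of these 3 lie above 0 after quantile normalization (not drawn). Within the total only mt-Co1 and mt-Nd5 are filled above 0 at 8 weeks.

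Against NCAC at 8 weeks, 7 members were lower in CAC: mt-Nd1, mt-Nd2, mt-Nd3, mt-Co2, mt-Co3, mt-Atp6 and mt-Cytb, against 1.98% of all genes. After median-of-ratios rescaling it was 9, against 11.5%, and after quantile normalization 1, against 13.8%, with mt-Co3 (0.03) and mt-Cytb (0.01) above 0. NCAC had 29764, 25676, 22954, 25535 and 27370 TPM of mt-Nd2, all above the highest CAC library. mt-Nd2 was lower by 0.50 (difference -0.50, SE 0.11, limma adjusted p = 0.000244). mt-Cytb, at 52583, 54995, 48184, 52622 and 48562 TPM in NCAC, did not overlap CAC either, with a difference of -0.23 (SE 0.06, adjusted p = 0.00138). The call of mt-Nd3 (-0.46, adjusted p = 0.0139) was lost without replicate 5 of CAC or replicate 1 of NCAC.

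In NCAC against Con no member was called by limma at any week, with 0, 8, 1 and 0 members at an unadjusted p under 0.05 at 2, 4, 6 and 8 weeks. Over all genes 0%, 0.00795%, 0% and 0% were called, so the background was at or near 0 as well. At 8 weeks the member differences ran from -0.40 (mt-Nd6, SE 0.31) to 0.04 (mt-Nd1, SE 0.09). At 4 weeks mt-Atp8 was at 1.18 (SE 0.31, limma adjusted p = 0.145). Without replicates 3 and 4 of Con it was at 0.33 (adjusted p = 0.999), and the number of members at an unadjusted p under 0.05 went from 8 to 0. The 4-week comparisons of CAC and NCAC share the Con libraries. CAC was compared with both arms, so the CAC libraries enter both sets of differences.

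Over the weeks, members called in CAC against Con numbered 0 at 2 weeks, 1 (higher) at 4 weeks, and 4 and 9 (lower) at 6 and 8 weeks. The change of the CAC and Con difference from 6 to 8 weeks was tested itself, and limma called no member on any scale. On TPM 1 member had an unadjusted p under 0.05, and 0.00795% of genes were called. At 2 weeks limma called none, against 0.0477% of genes lower and 4.58% higher, and none had an unadjusted p under 0.05. On TPM 10 of 13 differences were below 0, where the median over all genes was 0.09. After median-of-ratios rescaling 12 were below 0 and after quantile normalization 5, with medians over all genes of -0.02 and -0.06. The share of all genes below 0 was not counted. At 4 weeks mt-Atp8 was higher by 1.21 (SE 0.31, limma adjusted p = 0.0202), against 0.819% of genes higher. The CAC libraries had 42904, 40415, 49078, 43003 and 40752 TPM of mt-Atp8 and Con 22599, 34544, 8271, 7310 and 47801 TPM, so the groups overlapped and 2 Con libraries lay far below the rest. These were replicates 3 and 4, which stood apart, and the call was lost without either, as well as without replicate 2 of CAC. Without both, mt-Atp8 was at 0.37 (limma adjusted p = 0.569).

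At 6 weeks 4 members were lower in CAC than in Con, against 0.978% of genes on TPM and, again with 4 members, 2.93% after median-of-ratios rescaling. After quantile normalization none was, against 3.63% of genes, with 2 at an unadjusted p under 0.05 and mt-Co3 at 0.02. mt-Cytb had 47307, 48992, 44436, 50943 and 42325 TPM in CAC and 60095, 51719, 56142, 52728 and 54414 TPM in Con, with no overlap. Its difference was -0.23 (SE 0.06, limma adjusted p = 0.00644). mt-Co2 (-0.23, adjusted p = 0.0133) and mt-Co3 (-0.26, adjusted p = 0.0174) did not overlap either, and neither did mt-Atp6, which missed the threshold (-0.28, adjusted p = 0.0667). How common such a lack of overlap was over all genes was not counted. mt-Nd2 (-0.36, adjusted p = 0.0202) lost its call without replicate 4 of CAC or replicates 1 or 5 of Con. Without the 4 libraries that stood apart, none of them in these groups, 7 members were lower. In the same comparison 6 of 9 macrophage, 4 of 4 neutrophil and 4 of 6 adipocyte markers were higher on TPM (5, 4 and 2 after median-of-ratios rescaling). Over all genes 20.7% were higher on TPM and 5.36% after rescaling. Summed macrophage markers were 342 to 413 TPM in CAC and 116 to 384 in Con. The part of these markers in the mitochondrial differences was not tested.

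Against NCAC, CAC had no member called at 2 weeks (none at an unadjusted p under 0.05, with 0.0397% of genes called by limma, although the TPM of mt-Co3 did not overlap) or at 4 weeks (1 at an unadjusted p under 0.05, with 0.588% called). At 6 weeks mt-Cytb was lower (-0.23, SE 0.06, limma adjusted p = 0.0143), against 1.95% of genes lower, and the call was lost without replicate 5 of CAC and after median-of-ratios rescaling. Without the 4 libraries, which include 1 NCAC library of that week, 5 members were lower.

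Within CAC, 3 members fell from 2 to 8 weeks, mt-Cytb by 0.19, mt-Nd1 by 0.25 and mt-Nd2 by 0.31 (limma adjusted p of 0.0184, 0.0348 and 0.03), against 5.56% of genes lower, and none was called after median-of-ratios rescaling. In Con none was called over the same span (2 at an unadjusted p under 0.05), against 0.0318% of genes. The change of the CAC and Con difference from 2 to 8 weeks was tested itself, and limma called no member, with 8 at an unadjusted p under 0.05, against 1.42% of genes lower. Median-of-ratios rescaling gave no call either (9 at an unadjusted p under 0.05). After division by the non-mitochondrial total, mt-Cytb (-0.54, limma adjusted p = 0.0326) and mt-Nd6 (-1.38, adjusted p = 0.0491) were called lower, against 6.62% of genes, so whether the growth of the difference passed the threshold depended on the scaling.

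The members also took different shares of their own total, a quantity that does not depend on the rest of the transcriptome. For this each library was divided by its mitochondrial total and the fit repeated over all genes. Such a division raises nearly every nuclear gene in CAC, so 75.7% of genes were higher and 0.588% lower at 8 weeks against Con, and the adjustment hardly alters the p. Called members and those with an unadjusted p under 0.05 were the same 5 at 8 weeks. Of the 13 members 2 were higher, 3 were lower and 8 were not called. A share can only rise where others are lower, so the 13 values are not independent.

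At 8 weeks mt-Co1 made up 16.4%, 18.5% and 19.7% (lowest, median, highest) of the mitochondrial total in CAC and 15.2%, 16.01%, 14.96%, 15.98% and 14.4% in Con. The groups did not overlap, and the log2 difference was 0.25 (SE 0.08, limma adjusted p = 0.00468). mt-Nd5 made up 1.52%, 1.90% and 2.19% in CAC and 1.47%, 1.11%, 1.45%, 1.53% and 1.64% in Con, with replicate 3 of CAC inside the Con range. Its difference was 0.39 (SE 0.12, adjusted p = 0.00398), and both calls held without each library in turn.

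Lower in share were mt-Nd2, mt-Nd3 and mt-Nd6. mt-Nd2 averaged 3.66% ± 0.328 (n = 7) in CAC and 4.23% ± 0.439 (n = 5) in Con (-0.21, limma adjusted p = 0.0217). mt-Nd3 averaged 2.43% and 2.93% (-0.29, adjusted p = 0.0338), and mt-Nd6 0.140% and 0.216% (-0.68, adjusted p = 0.0214). These 3 were less firm than the other pair: the mt-Nd2 call was lost without CAC replicate 4 or Con replicates 3 or 5, the mt-Nd3 call without CAC replicates 2 or 5 or Con replicates 1, 3 or 5, and the mt-Nd6 call without CAC replicates 2 or 6 or Con replicate 2.

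mt-Atp8 took 5.24%, 9.29% and 9.85% (lowest, median, highest) in CAC and 11.3%, 11.2%, 10.2%, 10.3% and 10.2% in Con. The groups did not overlap, but the difference was not called (-0.34, SE 0.24, limma adjusted p = 0.193). Summed by complex, the 3 cytochrome oxidase mRNA took 46.7% ± 1.48 in CAC and 43.1% ± 0.941 in Con, and the 2 ATP synthase mRNA took 21.4% ± 1.65 and 24.5% ± 0.558, each without overlap. The complex I mRNA together took 23.3% and 23.9% and mt-Cytb 8.61% and 8.48%, both with overlap.

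**Figure D3:**
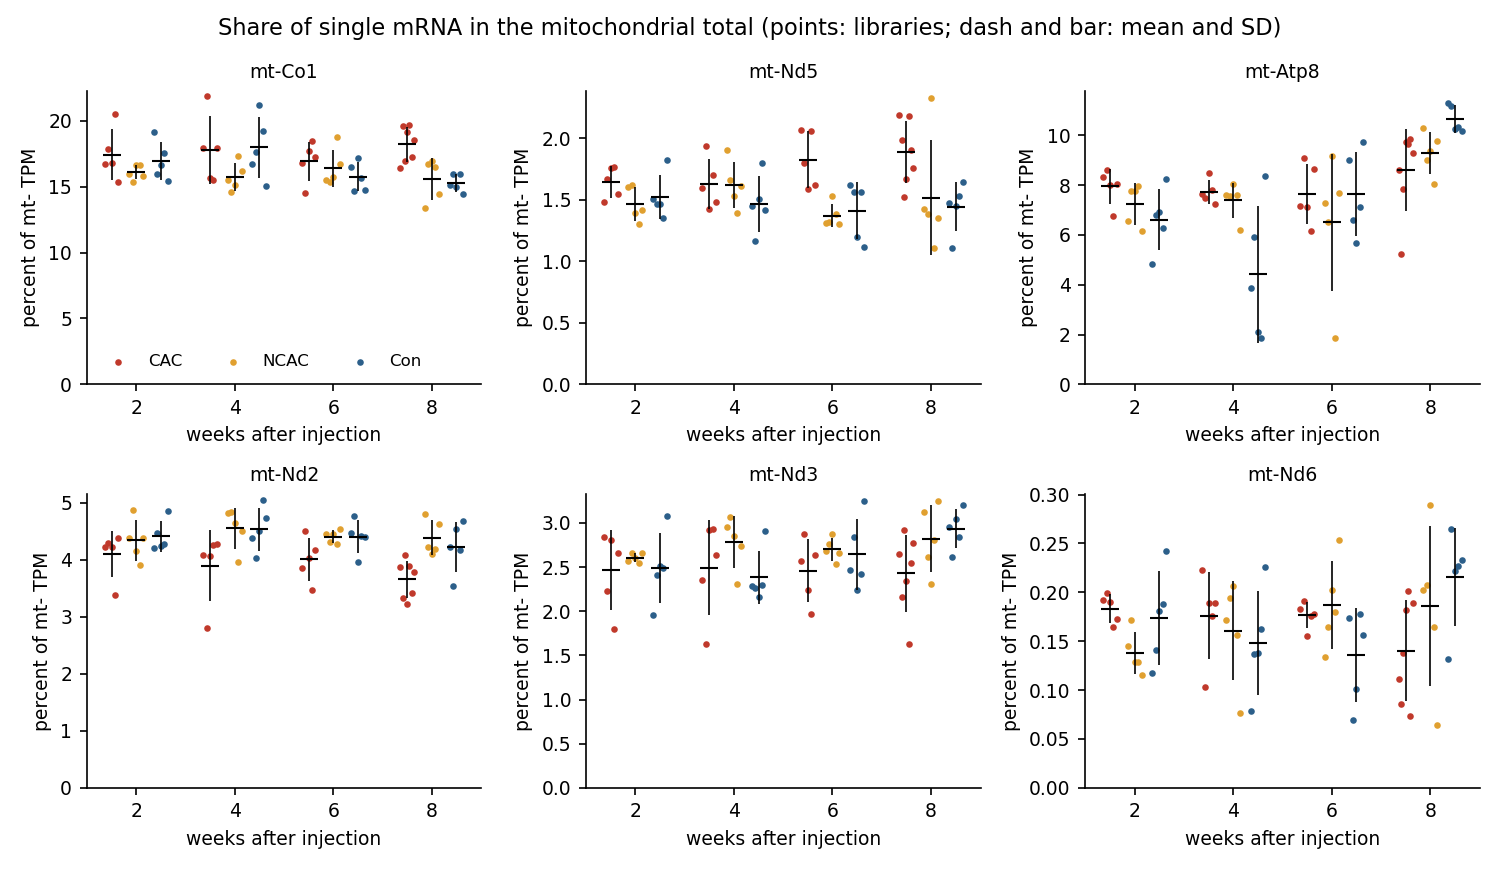
Percent of the mitochondrial TPM total taken by 6 mRNA at 2, 4, 6 and 8 weeks in CAC, NCAC and Con, with points for libraries and a dash and bar for mean and SD. At 8 weeks the CAC libraries of mt-Co1, from 16.4% to 19.7%, lie above all Con libraries, and those of mt-Atp8 lie below them.

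Against NCAC at 8 weeks, mt-Co1 (0.23, limma adjusted p = 0.0133) and mt-Nd5 (0.35, adjusted p = 0.0126) had higher shares in CAC, and mt-Nd2 a lower one (-0.26, adjusted p = 0.00666). Over all genes 60.2% were higher and 0.747% lower on this scale. mt-Nd2 shares ran from 3.23% to 4.08% in CAC and from 4.10% to 4.801% in NCAC, without overlap. The mt-Co1 call was lost without NCAC replicate 1, which had the lowest mt-Co1 share of all 62 libraries, 13.4%, and the mt-Nd5 call without NCAC replicate 4.

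At 6 weeks only mt-Nd5 had a higher share in CAC than in Con (0.38, SE 0.13, limma adjusted p = 0.0188), against 46.1% of genes. Its shares were 2.07%, 1.80%, 1.59%, 2.06% and 1.62% in CAC and 1.62%, 1.56%, 1.20%, 1.56% and 1.12% in Con, with an overlap at the edge, and the call was lost without CAC replicates 1 or 4 or Con replicates 3 or 5. Against NCAC, whose shares were 1.31%, 1.32%, 1.53%, 1.38% and 1.30%, the mt-Nd5 groups did not overlap and the test missed the threshold (0.41, adjusted p = 0.0525). At 4 weeks mt-Atp8 was higher in share by 1.04 (adjusted p = 0.0216), against 0.215% of genes, and the call rested on the same libraries as on TPM.

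The subunits that lie on 1 mRNA did not keep a fixed ratio. Per length, mt-Atp8 averaged 0.568 of mt-Atp6, from 0.151 to 1.02. The 3 lowest ratios, 0.185, 0.157 and 0.151, were those of replicates 3 and 4 of Con at 4 weeks and replicate 4 of NCAC at 6 weeks. In the other 59 libraries the ratio still ran from 0.275 to 1.02. For mt-Nd4l over mt-Nd4 the mean was 0.836 with a range of 0.667 to 1.27, the highest in replicate 5 of CAC at 8 weeks. Whether short length, shared bases or the counting set these ratios was not tested.

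Shares of some members moved against each other across libraries. mt-Atp8 and mt-Cytb shares had a Pearson r of -0.83 and a Spearman rho of -0.70 over 62 libraries, and -0.68 and -0.65 over the 59 without the 3 libraries above. mt-Co1 and mt-Nd3 had an r of -0.84 and a rho of -0.82, and -0.86 and -0.81 over the 59. These values describe shares of 1 total within a library, which are tied by construction, and they pool 12 groups.

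**Figure D4:**
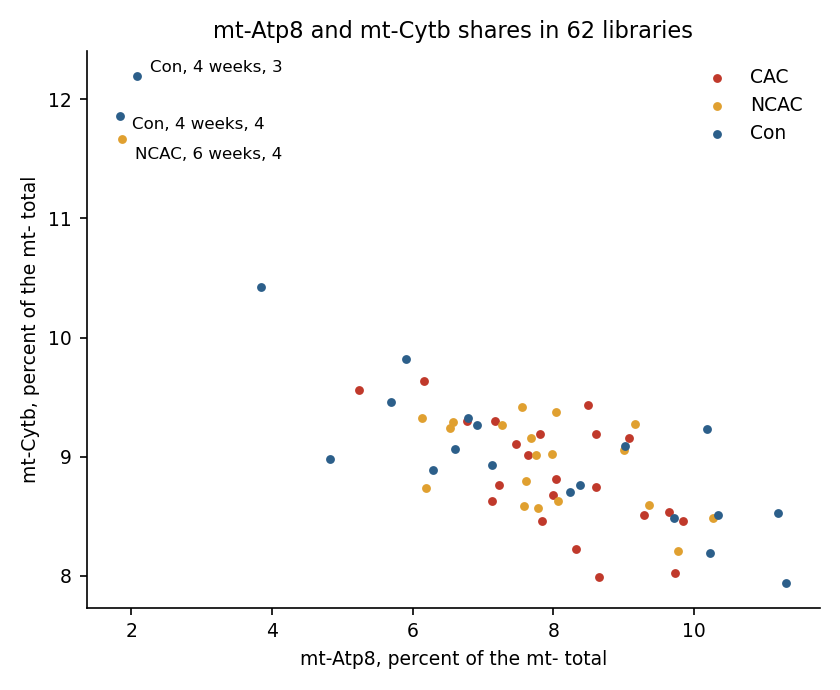
Percent of the mitochondrial total taken by mt-Atp8 (x axis) and mt-Cytb (y axis) in 62 libraries, coloured by arm. The 3 labelled libraries hold the lowest mt-Atp8 shares, 1.84% to 2.09%, and the highest mt-Cytb shares, 11.7% to 12.2%, and the others fall from upper left to lower right.

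Within each library, the mitochondrial mRNA of a complex were set against the nuclear mRNA of the same complex, as the difference of their mean log2(TPM + 1), in which the scaling of the library largely cancels. For complex V (2 mitochondrial and 15 nuclear mRNA) the difference at 8 weeks was 6.77, 7.50 and 7.65 (lowest, median, highest) in CAC and 8.36, 8.00, 8.18, 7.97 and 8.17 in Con. The groups did not overlap, and their means were -0.71 apart. For complex I (7 and 36 mRNA) the means were -0.53 apart and for complex III (1 and 9) -0.41 apart, both without overlap. For complex IV (3 and 14) they were -0.33 apart, and replicate 5 of CAC, at 7.44, lay at the top of the Con range. Against NCAC the means at 8 weeks were -0.32, -0.26, -0.17 and -0.42 apart for complexes I, III, IV and V, all with overlap.

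At 6 weeks CAC and Con were -0.32, -0.42, -0.44 and -0.45 apart for complexes I, III, IV and V, without overlap for III and IV. At 2 weeks complex IV was -0.26 apart from Con, with overlap, and -0.16 apart from NCAC, without overlap, whereas complexes I, III and V lay within -0.102 and 0.023 of the other arms and overlapped them. At 4 weeks CAC lay 0.50, 0.25, 0.46 and 0.99 above Con for complexes I, III, IV and V, all with overlap. Without replicates 3 and 4 of Con the differences were 0.09, -0.04, 0.10 and 0.20. Complex V was at 5.48 and 5.26 in replicates 3 and 4 of Con at 4 weeks and at 5.87 in replicate 4 of NCAC at 6 weeks. These lay below every other library. Replicate 2 of CAC at 8 weeks, whose total of 44.3% was below that of the NCAC library (48.4%), was at 6.77.

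**Figure D5:**
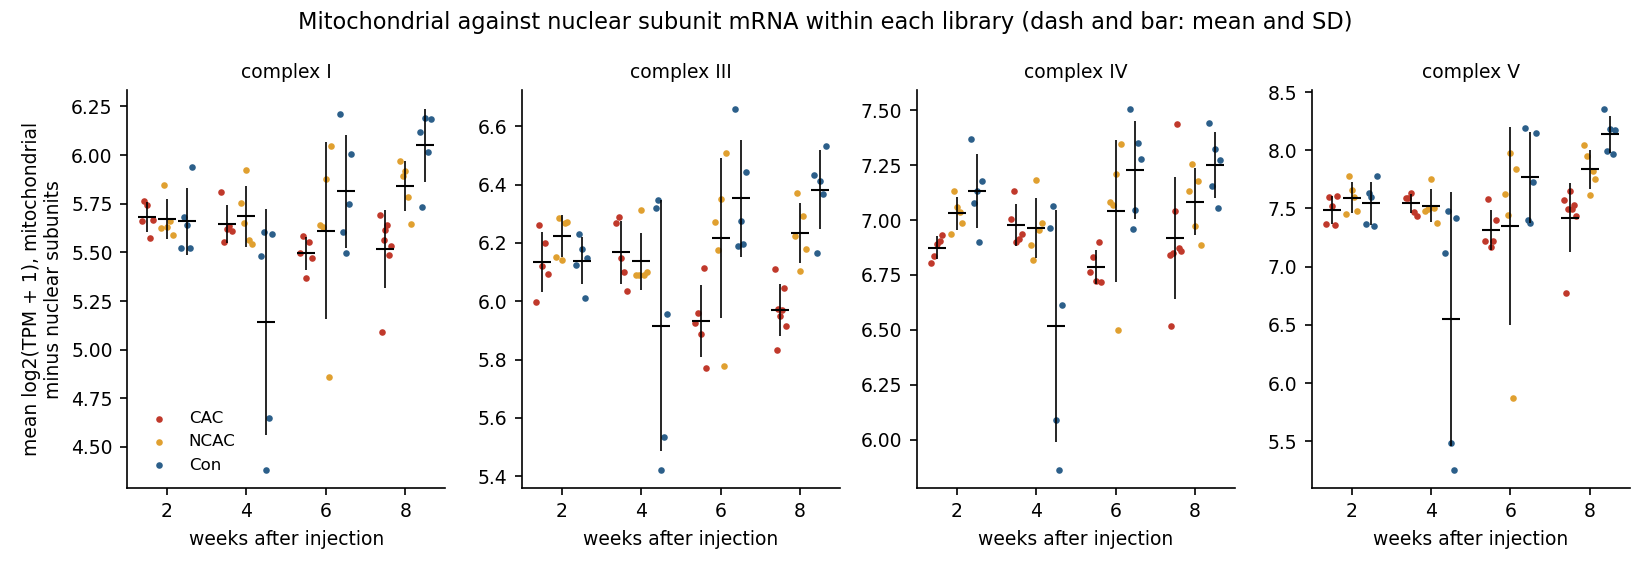
Mean log2(TPM + 1) of the mitochondrial minus that of the nuclear subunit mRNA of complexes I, III, IV and V in each library, by week and arm, with mean and SD. At 8 weeks CAC lies below Con without overlap for complexes I, III and V. For complex V, 2 Con libraries at 4 weeks and 1 NCAC library at 6 weeks lie far below the rest.

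The nuclear genes that make and keep mitochondrial RNA were taken from lists. Their counts at 8 weeks in CAC against Con stand against 52.1% of all genes higher and 1.97% lower on TPM, and 13.5% higher and 12.8% lower after median-of-ratios rescaling. On TPM none of the 11 tested transcription genes was called in CAC against Con at 8 weeks, and after median-of-ratios rescaling 6 were lower. Tfam, which packages and starts transcription of the genome, was at -0.11 (limma adjusted p = 0.246) on TPM and lower by 0.45 after rescaling (difference -0.45, adjusted p = 4.44e-06). Polrmt, the polymerase, was at 0.09 and -0.24 and not called on either scale. Of 12 replication genes 7 were higher on TPM, a share near that of all genes, among them Polg, the DNA polymerase (0.32), and Tk2 (0.43) and Rnaseh1 (0.27) at the ends, and 4 were lower after rescaling, when Polg was at -0.003. Twnk, the helicase listed as Peo1, was at -0.09 on TPM and lower after rescaling (-0.43, adjusted p = 0.00855).

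Of 34 RNA processing genes 13 were higher on TPM, a smaller share than over all genes, and after rescaling 1 was higher and 10 were lower. The gene higher on both scales was Hsd17b10, a subunit of mitochondrial RNase P (1.37 and 1.02), and the lowest of those called on TPM was Grsf1, an RNA-binding protein (0.22). Of 8 stability and decay genes 2 were higher on TPM, again a smaller share than over all genes, Angel2 (0.22) and Pnpt1 (0.19), and 1 was lower after rescaling. Lrpprc and Slirp, which bind and stabilize mRNA, and Mtpap, the poly(A) polymerase, were at 0.16, 0.18 and 0.14 and not called on either scale. Of 22 mitochondrial tRNA synthetases 6 were higher on TPM, likewise below the 52.1% of all genes, from 0.45 (Gars) to 0.22 (Nars2), and 9 were lower after rescaling.

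Of 13 regulators of mitochondrial biogenesis 5 were higher and 2 lower on TPM, from Pprc1 (0.49) to Perm1 (-1.26, limma adjusted p = 9.09e-05), and 3 were lower after rescaling, with Perm1 at -1.59. Ppargc1a, the coactivator PGC-1alpha, was at 0.07 (SE 0.45, adjusted p = 0.903), with the widest error of the genes named. Nuclear subunits gave no call below 0 on TPM, and the share called higher lay below the 52.1% of all genes for every complex: higher were 9 of 36 for complex I (Ndufa2 0.32 to Ndufc2 0.18) and 2 of 9 for complex III (Uqcr10 0.33, Uqcrq 0.31). Also higher were 3 of 14 for complex IV (Cox7a2 0.32 to Cox7b 0.27), 4 of 15 for complex V (Atp5c1 0.35 to Atp5f1 0.19) and, for the wholly nuclear complex II, 1 of 4 (Sdha 0.33). After rescaling none was higher, and 20, 5, 3, 6 and 3 were lower. List medians on TPM lay between 0.08 and 0.28, at or below the median of all genes (0.28), whereas the mitochondrial members were at -0.32.

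Markers of other cell types differed between CAC and Con as well, and not at 8 weeks alone. At 2 weeks, when no mitochondrial member was called, 13 of 14 skeletal muscle and 7 of 9 macrophage markers were higher on TPM and after median-of-ratios rescaling, as were 3 of 8 fibroblast markers. Over all genes 4.58% were higher on TPM and 4.05% after rescaling. Muscle marker sums at 2 weeks were 1532 to 16906 TPM in CAC and 100.5 to 2798 in Con, with overlap. At 4 weeks 1 of 9 macrophage markers was higher (3 after rescaling) and 2 of 12 brown adipocyte markers were lower (0 after rescaling). Over all genes 0.819% were higher and 3.03% lower on TPM, and 3.14% and 2% after rescaling. The 8-week counts that follow stand against 52.1% of all genes higher and 1.97% lower on TPM, and 13.5% and 12.8% after rescaling. In CAC against Con at 8 weeks all 9 macrophage markers tested were higher, with sums of 249 to 607 TPM in CAC and 125 to 164 in Con, and so were all 4 neutrophil markers. Of 6 adipocyte markers 5 were higher (3 higher and 1 lower after rescaling), with sums of 18383 to 34852 TPM against 13278 to 17507. Of 12 brown adipocyte markers 1 was higher and 4 were lower (0 and 6 after median-of-ratios rescaling), with sums of 7465 to 11033 against 9764 to 12293 TPM. Ucp1 itself fell by 0.82 (SE 0.25, limma adjusted p = 0.00571). None of 14 muscle or 5 erythroid markers was called. Of 6 endothelial markers 4 were higher and 1 lower (1 and 1 after rescaling), and of 5 white adipocyte markers 3 were higher. Both counts of higher markers lay near the share of all genes on TPM. Of 8 fibroblast markers 1 was higher (1 lower after rescaling), below that share. Of 7 epithelial markers 4 and of 3 lymphocyte markers 1 were lower. The defining neutrophil gene Ly6g was listed at 0 in 17 libraries and Cd3e, a T cell gene, in 22. The part of cell makeup in the mitochondrial differences was not tested.

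Across all 62 libraries, after median-of-ratios rescaling, the nuclear genes most like the summed mitochondrial level by Pearson correlation of log2 values were Apoo (0.82), Cycs (0.76), Tmem70 (0.75), Lyrm5 (0.74) and Dynlt3 (0.74). Apoo encodes a protein of the inner mitochondrial membrane and Cycs is cytochrome c. The median over 12568 genes was -0.0006, and Ucp1 was at 0.20. These are descriptions over libraries that share 12 groups, and they include the 3 libraries with the lowest mt-Atp8 shares.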

How the data were processed

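RNA of 62 brown adipose libraries was extracted with Trizol and sequenced on an Illumina NovaSeq instrument after a TruSeq stranded mRNA preparation, per the labels' protocols. The extraction text also mentions another tumour model, and the groups follow the treatment and time labels. The authors deposited TPM, which total 1000000 in every library. The build is mm10, per the submitters' processing notes. The aligner, the annotation and the counting are not given in the sources used here.

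Values were taken as log2(TPM + 1), which understates changes of low rows, and rows with at least 1 TPM in 5 libraries were kept (12581). All 12 groups entered a single linear model (limma 3.58.1 under R 4.3.3, moderated variances with a trend), from which 16 contrasts were taken with Benjamini-Hochberg adjustment over all genes within each. A gene was called at an adjusted p under 0.05. The fit was repeated after dividing each library by its mitochondrial total. The fit was tested on simulated data. Planned permutation tests of the total and of shares by complex are not reported, since both are sums over the members. The replicates are biological per the labels. In the main fit, a p-value sets a difference against the spread between libraries within groups, taken over all 12 groups.

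Gene positions and sequences are from the GENCODE transcripts for mm10, and nuclear copies were found with blastn 2.17.0+. Ratios and figures were made with Python 3.11.15, pandas 2.3.3 and matplotlib 3.10.9. Named were all members, in each pathway list the called genes with the highest and lowest log2 difference in CAC against Con at 8 weeks, 9 genes chosen by role, the 5 genes most like the total, and the closest nuclear copies. The members, lists and named genes were chosen with earlier results of these data known. Alternatives covered the pseudocount, the filter, scaling, the groups fitted, a replicate block and leaving out libraries. The fit without the 4 libraries that stood apart, and the comparison of mitochondrial with nuclear subunits at 4 weeks without 2 of them, were chosen after seeing the data.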

Additional observations from a re-analysis of the deposited data

Results flagged for a closer look

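Of 204 groups of values examined (the mitochondrial total, the shares of complexes I, IV and V and those of the 13 mRNA, in 12 groups), 17 held a library separated from the rest of its group by more than Dixon's 95% limit, where chance gives about 1 in 20. No explanation was weighed.

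In NCAC at 2 weeks, replicate 2 had a mitochondrial total of 61.7% of TPM and a complex IV share of 44.4%. In CAC at 4 weeks, replicate 2 had low shares of complex I (21.3%), mt-Nd1 (5.15%) and mt-Nd2 (2.80%). The mt-Atp8 call at 4 weeks was lost without that library. In CAC at 8 weeks, replicate 5 had low shares of mt-Atp6 (9.48%) and mt-Nd4 (4.14%) and a high share of mt-Nd4l (5.28%). All 9 members called against Con at 8 weeks were still called without it.

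In CAC at 2 weeks, replicate 4 had a low mt-Nd2 share (3.39%) and replicate 3 a low mt-Atp6 share (13.4%, with the nearest library at 13.6%). In CAC at 6 weeks, replicate 5 had a low mt-Nd4 share (4.40%). In NCAC at 4 weeks, replicate 4 had a low complex I share (22.2%) and replicate 5 a low mt-Atp8 share (6.19%). In NCAC at 6 weeks, replicate 4 had the mt-Cytb share farthest from its group (11.7%, with the nearest at 9.28%). In NCAC at 8 weeks, replicate 3 had the highest mt-Nd5 share of all libraries (2.32%). In Con at 4 weeks, replicate 5 had a high mt-Nd3 share (2.91%) and replicate 4 a low mt-Nd4 share (4.42%).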

How the results depend on the processing

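The result that 9 members were lower in CAC than in Con at 8 weeks kept 9 to 10 members without each library in turn. Counts of called members on TPM became 0, 0 and 3 in CAC against Con at 4, 6 and 8 weeks, and 0 and 1 against NCAC at 6 and 8 weeks, with no filter. Quantile normalization gave 2, 0 and 4, and 0 and 1, in the same comparisons. Of members called on TPM it turned 6 single values. Against Con these were mt-Co3 at 6 weeks (0.0182), and mt-Co3 (0.0260), mt-Nd4 (0.0142) and mt-Cytb (0.122) at 8 weeks. Against NCAC they were mt-Co3 (0.0260) and mt-Cytb (0.00811) at 8 weeks. A fall shared by members that keep the top ranks cannot show after quantile normalization. Whether these members kept their ranks over all genes was not tested. Median-of-ratios rescaling gave 0 against NCAC at 6 weeks, and division by the non-mitochondrial total gave 9 against Con at 6 weeks. Fitting only the groups compared gave 0 against Con at 4 weeks and 0 against NCAC at 6 weeks. Without replicates 3 and 4 of Con at 4 weeks the count there was 0. Without the 4 libraries that stood apart it was 0 at 4 weeks and 7 at 6 weeks against Con, and 5 at 6 weeks against NCAC.

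Within the mitochondrial total, no filter gave 0, 0 and 2 against Con at 4, 6 and 8 weeks and 0 against NCAC at 8 weeks. A filter at 5 TPM gave 2 against Con at 4 weeks, 1 against NCAC at 6 weeks and 2 for NCAC against Con at 4 weeks. The geometric mean of the 13 mRNA as denominator gave 3 at 4 weeks and 3 at 8 weeks against Con, and 2 for NCAC against Con at 4 weeks. Fitting only the groups compared, leaving out replicates 3 and 4 of Con at 4 weeks, and leaving out the 4 libraries each gave 0 against Con at 4 weeks, and the last gave 1 and 6 against NCAC at 6 and 8 weeks. The mitochondrial total at 4 weeks became -2.18 percentage points for CAC and -0.853 for NCAC against Con without replicates 3 and 4 of Con. Causes were not tested. Some alternatives leave fewer samples, and the filters change the number of genes tested, which is larger with no filter.

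Leaving out 1 library at a time, counts on TPM ranged from 0 to 1 for CAC against Con at 4 weeks, CAC against NCAC at 6 weeks and NCAC against Con at 4 weeks. Within the total they ranged from 0 to 3 at 4 weeks, 0 to 1 at 6 weeks and 3 to 6 at 8 weeks against Con, 0 to 1 for CAC against NCAC at 6 weeks, and 0 to 3 for NCAC against Con at 4 weeks. With the replicate number as a block, 9 members were lower against Con and 6 against NCAC at 8 weeks on TPM, and within the total 4 and 3 were called. The numbers share no stated source: 60 pairs of libraries with the same number had a mean correlation of deviations of -0.0034, and 16 were over 0.1. Of values for single members 581 kept their side of the threshold, 83 lost it and 6 turned. Unknown depth limits what can be said of mt-Nd6, the scarcest member.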
